A study of Caenorhabditis elegans with 4 samples.

Results

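The H3K4me3 peaks on the X chromosome were all rows of the deposited peak lists that lie on X, 635 of 3811 in replicate 1 and 574 of 3487 in replicate 2. The lists come from ChIP-seq with a mouse monoclonal antibody against H3K4me3 (Wako) in chromatin of mixed-stage (MXemb) embryos of the wild-type strain N2, prepared by bleaching gravid adults grown in liquid culture, in 2 biological replicates with no other treatment or genotype. The labels give different versions of the embryo extraction protocol for the replicates, so a difference between them cannot be told apart from that step. Each replicate has its own input library, and these 2 inputs were not analysed here. The embryos are a mixture of cell types and stages, so a peak may be carried by any part of the cells. The lists hold only the position and a score for each peak and no read counts, so the depth behind a peak is unknown from them, and the study's methods give more aligned reads for replicate 1 than for replicate 2.

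Trimethylation of lysine 4 of histone H3 is found at the promoters and first nucleosomes of transcribed genes, where it is laid down by SET1-type methyltransferases. In *C. elegans* the hermaphrodite carries a pair of X chromosomes and the male carries only one. In hermaphrodites a condensin-containing dosage compensation complex binds both X chromosomes from early embryogenesis onward and lowers their transcription, and in the germ line X is largely silent and holds few genes of germline function. LEM-2 is a transmembrane protein of the inner nuclear membrane. In the maps of the same study it marks membrane-associated stretches called LEM-2 subdomains, separated by gaps, which are frequent on both arms of each autosome and on X gather mainly at the left end. The X peaks were therefore compared with those of the 5 autosomes in number, size, spacing, score and position relative to these regions.

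Counted over its whole length, X was not short of peaks, although its gaps were sparser than those of every autosome, as given below. It held 35.8 peaks per Mb in replicate 1 and 32.4 in replicate 2, or 34.1 ± 2.43 (SD, n = 2), against 38.5 and 35.3 on the 5 autosomes together. The ratio of X to autosomes was 0.925 ± 0.00952 (SD, n = 2). The autosomes themselves ranged from 24.6 (chromosome V) to 50.6 (chromosome III) in replicate 1 and from 22.4 to 46.0 in replicate 2, so X lay inside their range, above chromosomes IV and V. Peaks covered 1.86 Mb, or 10.5%, of X in replicate 1 and 1.50 Mb, or 8.44%, in replicate 2, against 11.5% and 9.28% of the autosomes. Taken within each replicate, X minus all autosomes together was -2.64 and -2.89 peaks per Mb and -0.977 and -0.838 percentage points of bases. These differences were alike in both replicates but smaller than the distance between the X values of the replicates. Single autosomes also differed from each other by more.

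These comparisons were tested by exact permutation over the 6 chromosomes, two-sided, which asks how many chromosomes lie as far from the mean of the other 5 as X does. With 6 chromosomes its smallest possible p is 0.167. The exact permutation p was 0.833 for peak density and 0.833 for covered bases. Of 13 such comparisons, 5 reached 0.167, the value that X has when it stands farthest from the rest, and none could reach 0.05. Among these 5, the share of peaks in LEM-2 subdomains follows the smaller extent of subdomains on X. Adjusted over the 13 by the Benjamini-Hochberg method, the lowest exact permutation p became 0.433. The other ratios given below for single classes of regions were tested the same way and are outside this adjustment.

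**Figure D1:**
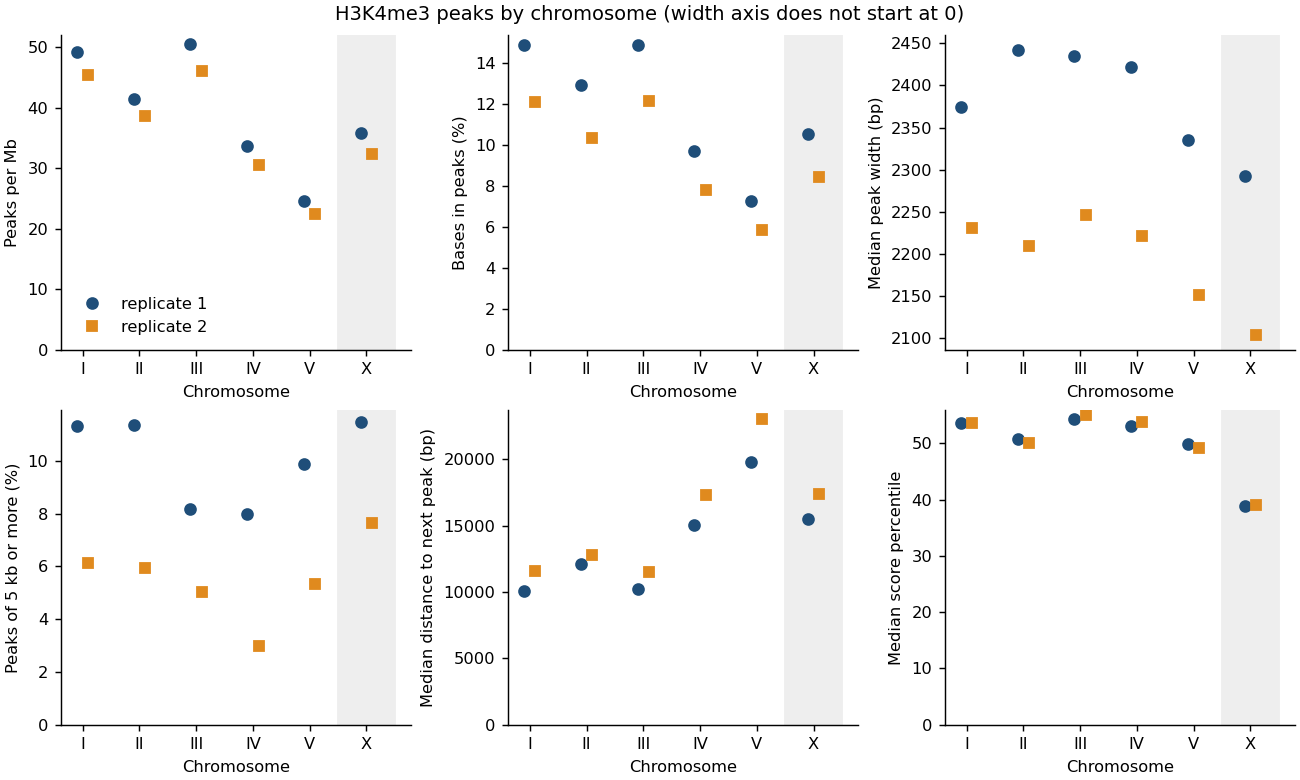
H3K4me3 peaks on each chromosome in replicate 1 (circles) and replicate 2 (squares), with X shaded. Panels give peaks per Mb, percent of bases in peaks, median peak width in bp, percent of peaks of 5 kb or more, median distance to the next peak in bp and median score percentile. X lies within the autosomes in density, coverage and spacing, and below every autosome in median width and in score percentile (38.9 and 39.1).

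The typical X peak was slightly narrower than the typical autosomal peak. The median width was 2292 bp in replicate 1 and 2104 bp in replicate 2 on X, against 2403 and 2215 bp on the autosomes. X was 111 bp lower in replicate 1 and 112 bp lower in replicate 2, and it was below each of the 5 autosomes in both, whose medians ran from 2335 to 2443 bp and from 2151 to 2246 bp (exact permutation p = 0.167). X widths ran from 1306 to 12089 bp in replicate 1 and from 1082 to 9477 bp in replicate 2, with the central 50% of peaks between 1858 and 3219 bp and between 1760 and 2922 bp. Peaks under 2 kb made up 34.8% of X peaks in replicate 1 and 43.2% in replicate 2, against 29.0% and 35.7% of autosomal peaks, and this share was higher on X than on every autosome. Peaks of 2 to 3 kb and of 3 to 5 kb made up smaller shares on X than on each autosome. At 2 to 3 kb in replicate 1, however, X was practically level with chromosome IV, at 36.54% against 36.56%. In gaps between LEM-2 subdomains X was below every autosome in both replicates, at 2302 and 2122 bp against at least 2416 and 2185 bp. In subdomains it was above chromosome V in both. Among left arm, centre and right arm, the lower median held in both replicates only for the left arm, at 2220 and 2085 bp against at least 2313 and 2159 bp. In the right arm X was above every autosome in replicate 1, at 2379 bp against 2292 to 2356 bp, and below every autosome in replicate 2. In the centre X was lowest in replicate 1 and above chromosome V in replicate 2, at 2129 against 2119 bp.

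Among wide peaks, how X stood depended on the width asked for. A width of 5 kb or more was reached by 73 of the 635 X peaks in replicate 1 and by 44 of the 574 in replicate 2, shares of 11.5% (95% interval 9.12 to 14.2%, Clopper-Pearson) and 7.67% (5.62 to 10.2%). The autosomes together had 9.79% and 5.15%. These intervals cover counting error only. X had a higher share than each autosome in both replicates, but in replicate 1 chromosome II was close behind at 11.4%, and the exact permutation p was 0.333. The difference of 2.11 ± 0.574 percentage points (SD, n = 2) fell to 0.0141 when peaks of 4 kb or more were counted, so the excess at 5 kb depends on where wide is set to begin. At 10 kb or more the X share was the lower, with 7 peaks (1.10%) against 1.26% in replicate 1 and 0 of 574 peaks, which allows a share of up to 0.523%, against 0.378% in replicate 2, a difference not detectable with so few peaks. The widest X peak of replicate 2, 9477 bp, was narrower than the widest peak of each autosome (9564 to 14513 bp).

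Ranked by width in replicate 1, the widest X peak matched between the replicates ran from 7455511 to 7467599, 12089 bp in replicate 1 and 7683 bp in replicate 2, in the central region of the chromosome. The next was from 5815450 to 5827045, 11596 and 9477 bp wide, also in the centre, and was the wider of this pair in replicate 2. In the left arm, a peak from 2039559 to 2050775 was 11217 bp wide in replicate 1 and 6170 bp in replicate 2. It lay over a medium gap between LEM-2 subdomains, from 2041785 to 2052020, took up 87.8% of that gap in replicate 1 and 60.3% in replicate 2, and in replicate 1 crossed its left edge. Another, from 2699843 to 2710220, was 10378 and 8731 bp wide and lay inside a medium gap. Each of these 4 was wider in replicate 1, which was also true of 455 of the 528 X peaks that matched 1 to 1 between replicates. The remaining peak of the 5 widest, from 11056416 to 11066831, was 10416 and 7522 bp wide but scored only 70.1 in replicate 1 and 353 in replicate 2, so width and score came apart there. The 3 narrowest shared peaks were 1407, 1410 and 1419 bp wide in replicate 1 and 1319, 1364 and 1464 bp in replicate 2, and all lay in gaps.

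**Figure D2:**
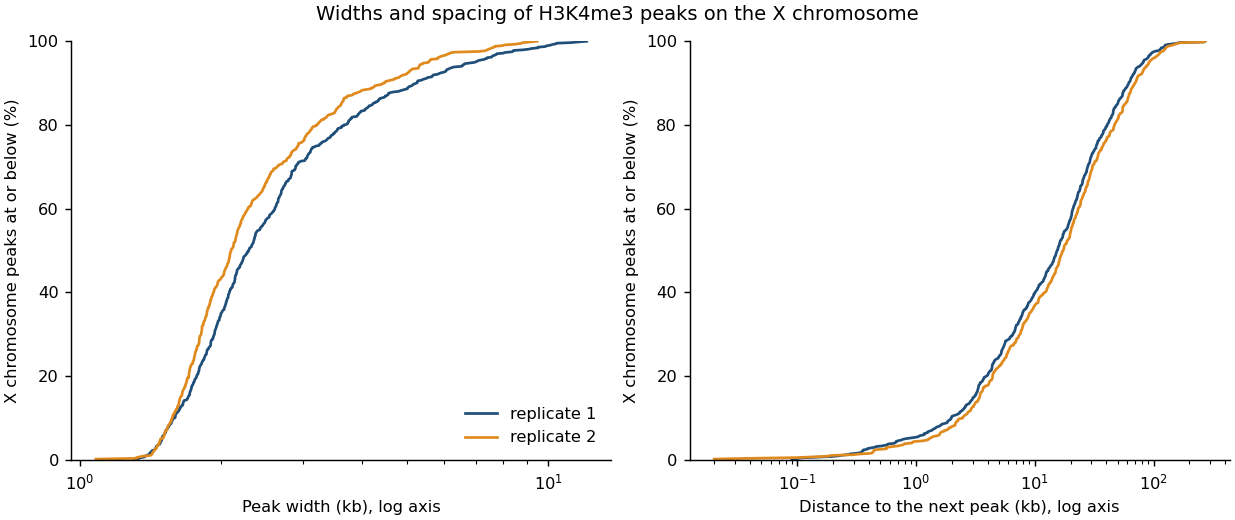
Cumulative share of X chromosome peaks by width (left) and of neighbouring pairs of X peaks by the distance from the end of a peak to the start of the next (right), both on log axes in kb, for replicate 1 and replicate 2. Widths in replicate 2 lie to the left of those in replicate 1 over most of the range (medians 2104 and 2292 bp), and distances to the right (medians 17357 and 15504 bp).

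X peaks were spaced at irregular distances. The distance from the end of a peak to the start of the next had a median of 15504 bp in replicate 1 and 17357 bp in replicate 2, against 12562 and 14533 bp on the autosomes, a ratio of 1.21 ± 0.0282 (SD, n = 2). The medians of single autosomes ran from 10086 to 19813 bp in replicate 1 and from 11508 to 23053 bp in replicate 2, and X lay inside this range, below only chromosome V (exact permutation p = 0.833). The central 50% of X distances lay between 5146 and 32935 bp in replicate 1 and between 5813 and 37470 bp in replicate 2. Close neighbours, under 1 kb apart, made up 34 of 634 pairs (5.36%) in replicate 1 and 25 of 573 (4.36%) in replicate 2, against 6.81% and 6.98% on the autosomes. Distances of 50 to 100 kb made up 12.5% and 14.5% of X pairs, against 8.29% and 10.3% of autosomal pairs.

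Long stretches without a peak took up a smaller share of X than of the autosomes together. The X share was still larger than that of chromosomes I, II and III in both replicates. Stretches of 100 kb or more numbered 16 in replicate 1 and 24 in replicate 2 and held 2.30 and 3.27 Mb, or 13.0% and 18.5%, of X, against 18.0% and 20.2% of the autosomes. Among single autosomes the share ran from 5.70% (chromosome III) to 36.9% (chromosome V) in replicate 1 and from 6.92% to 40.1% in replicate 2. X stood inside that range, and the exact permutation p was 1. With stretches of 50 kb or more the direction turned, and X had 4.41 percentage points more of its bases in them than the autosomes. The X shares of the replicates lay farther apart than the mean difference from the autosomes, which was -3.39 percentage points.

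The longest stretch of X with no peak in either replicate ran for 271 kb from 1529746 to 1800689, in the left arm, and 91.9% of it was LEM-2 subdomain. The next, of 266 kb from 15866792 to 16132742, lay in the right arm and was 30.7% subdomain. Then came a pair in the central region, 158 kb from 12693909 to 12851796 (9.53% subdomain) and 144 kb from 13252568 to 13396202 (0% subdomain). The last of the 5 longest, of 138 kb from 2925263 to 3063125, was in the left arm and 76.4% subdomain. Of the 16 such stretches of 100 kb or more on X, 10 were in the central region, 4 in the left arm and 2 in the right arm. These parts make up 66.0%, 22.9% and 11.1% of X, so the counts are close to what length alone would give. In bases, the stretches held 1.26 Mb in the central region, 0.636 Mb in the left arm and 0.380 Mb in the right arm. By this measure the arms held more than their length alone would give. Peaks reached close to both ends of the chromosome. The first began 9.69 kb from the left end in replicate 1 and 9.91 kb in replicate 2, and the last ended 2.98 and 3.16 kb from the right end.

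Among peaks matched between the replicates, the 5 farthest from any neighbour lay in the centre and the right arm. The last peak of the chromosome, from 17713929 to 17715872, was 81.2 kb from the nearest other peak, with a neighbour on one side only. Inside the chromosome, the peak from 10765461 to 10770019 stood 69.4 kb from the nearest peak of either replicate and was 4559 and 3983 bp wide. The peak from 8995315 to 8998191 stood 68.6 kb away, the peak from 6617606 to 6623740 stood 64.7 kb away and the peak from 16703456 to 16705274 stood 64.0 kb away. Their widths in replicate 1 ran from 1819 to 6135 bp, so isolated peaks were not restricted to narrow ones.

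X peaks scored lower than autosomal peaks. The score of a peak is 10 times the negative log10 of the p-value given by the peak caller, and it piles up near 3100, so scores were turned into percentiles among all peaks of the same library. The median X peak stood at percentile 38.9 in replicate 1 and 39.1 in replicate 2, whereas the median autosomal peak stood at 52.4 and 52.3. The difference of -13.3 ± 0.238 percentile points (SD, n = 2) was far larger than the spread between replicates. The medians of single autosomes ran from 50.0 to 54.4 in replicate 1 and from 49.2 to 55.1 in replicate 2, so X was below all of them (exact permutation p = 0.167). The median score itself was 974 on X against 1775 on the autosomes in replicate 1, and 392 against 655 in replicate 2. Scores of 3100 or more were reached by 129 of the 635 X peaks (20.3%) in replicate 1 and by 23 of 574 (4.01%) in replicate 2, against 36.0% and 7.96% of autosomal peaks.

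The lower score was seen in each part of X with a few overlaps. The median percentile was 40.4 in the left arm, 39.3 in the centre and 31.7 in the right arm in replicate 1, and 39.9, 40.2 and 30.5 in replicate 2. Autosomal centres ran from 48.0 to 55.0 in replicate 1 and from 44.9 to 53.3 in replicate 2. Autosomal right arms ran from 52.2 to 60.3 and from 48.9 to 60.8, and X was below all of these. In the left arm, chromosome II was lower than X in replicate 1, at 38.5, and higher in replicate 2, at 44.0. In LEM-2 subdomains the X median was 32.3 in replicate 1 and 23.7 in replicate 2, and in gaps it was 39.6 and 40.2, each below the corresponding value of every autosome.

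The difference was also seen among peaks of similar width. Among peaks of 2 to 3 kb, the X median was at percentile 39.4 in replicate 1 and 52.1 in replicate 2, against 58.0 to 62.3 and 60.1 to 64.3 for single autosomes. In this class 41 of 232 X peaks (17.7%) reached a score of 3100 in replicate 1, against 37.7 to 43.3% on single autosomes. Among peaks of 3 to 5 kb, X stood at 57.8 and 65.6 and was the lowest of the 6 chromosomes in both replicates, although chromosome II was close to it in replicate 1 at 58.8. Among peaks of 5 kb or more the replicate 1 medians of all 6 chromosomes were at the ceiling, and in replicate 2 X was lowest at 84.5, against 88.2 to 93.7. Under 2 kb, X lay among the autosomes in replicate 1, at 22.7 against 20.9 to 25.0, and below them in replicate 2, at 18.6 against 22.5 to 26.1. Width and score rose together on X, with a Spearman correlation across peaks of 0.55 in replicate 1 (635 peaks) and 0.72 in replicate 2 (574 peaks), within the range of the autosomes. Peaks of a library share its depth and background and are not independent replicates. Whether differences between chromosomes in background, mappability or copy number enter the scores was not tested.

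**Figure D3:**
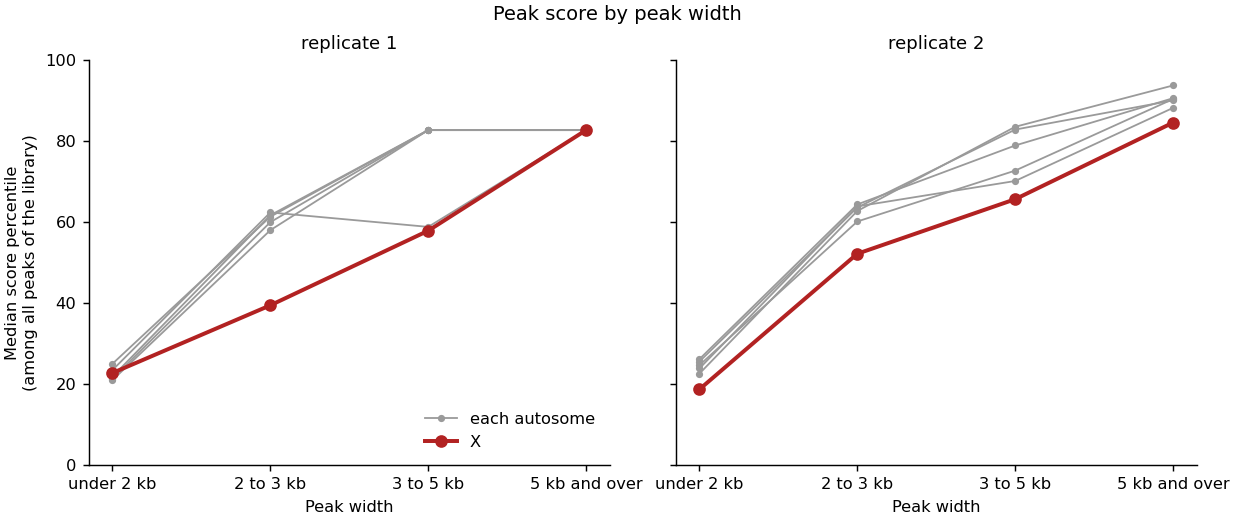
Median score percentile (0 to 100, among all peaks of the library) of peaks in 4 width classes, for X (red) and for each autosome (grey), in replicate 1 (left) and replicate 2 (right). X lies below every autosome from 2 to 5 kb in both replicates, with the wider margin to the lowest autosome at 2 to 3 kb. Under 2 kb in replicate 1 it lies among them. The flat top in replicate 1 is the score ceiling.

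The centre of X exceeded its arms in peak density by less than the centres of the autosomes did. The study set the borders of a left arm, a centre and a right arm by eye at the edges of the LEM-2 domains, which on X gives a left arm of 4.05 Mb, a centre of 11.7 Mb and a right arm of 1.97 Mb. Replicate 1 had 136 peaks in the left arm (33.6 per Mb), 446 in the centre (38.1 per Mb) and 53 in the right arm (26.9 per Mb). Replicate 2 had 128 (31.6 per Mb), 396 (33.8 per Mb) and 50 (25.4 per Mb). The density of the X centre was 1.21 times that of both X arms together in replicate 1 and 1.14 times in replicate 2, or 1.18 ± 0.0491 (SD, n = 2). On the autosomes the same ratio ran from 1.55 (chromosome I) to 1.96 (chromosome V) in replicate 1 and from 1.47 to 1.85 in replicate 2, so X was below all 5 in both replicates (exact permutation p = 0.167). This ratio was added after the data had been seen.

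Counted over whole arms and centres, the X centre was sparse and the X arms were not. At 38.1 and 33.8 peaks per Mb the X centre was close to that of chromosome V, the least dense autosomal centre at 38.3 and 33.7, and far below that of chromosome III, at 66.8 and 61.2. The left arm of X, at 33.6 and 31.6 peaks per Mb, lay in the middle of the autosomal left arms, which ran from 21.4 to 40.5 and from 20.3 to 40.1. Less of it is LEM-2 subdomain, 2.18 of 4.05 Mb, against 6.43 of 8.17 Mb (chromosome V) to 4.18 of 4.69 Mb (chromosome II). Its gaps taken alone were sparser than those of every autosomal left arm, as given below. How far the contrast of centre and arms follows subdomain content was not tested. The left arm was 0.920 times as dense as the rest of X in replicate 1 and 0.969 times in replicate 2, or 0.944 ± 0.0345 (SD, n = 2). The autosomal values ran from 0.666 to 0.900 and from 0.613 to 0.953, with chromosome IV nearest to X (exact permutation p = 0.333). The right arm was less dense than the rest of X, at 0.728 and 0.763 times, within the autosomal range.

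**Figure D4:**
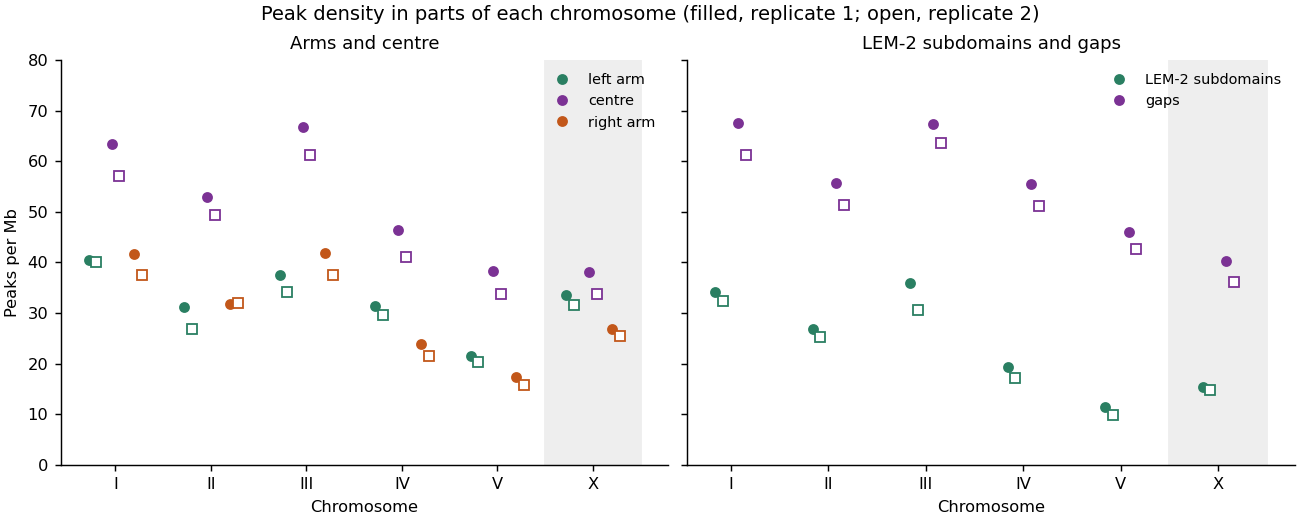
Peaks per Mb in the left arm, centre and right arm (left panel) and in LEM-2 subdomains and gaps (right panel) of each chromosome, with replicate 1 as filled circles, replicate 2 as open squares and X shaded. The X centre (38.1 and 33.8 peaks per Mb) stands little above its left arm, whereas autosomal centres stand well above their arms. With all sizes pooled, X gaps are the least dense gaps of the 6 chromosomes.

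In bins of 1 Mb counted from the left end, peak numbers on X varied between 25 and 48 in replicate 1 and between 18 and 45 in replicate 2 over the 17 full bins. The fullest bin in replicate 1 was the fifteenth, from 14000001 to 15000000, with 48 peaks, and 41 in replicate 2. In replicate 2 it was the fifth, from 4000001 to 5000000, with 45 peaks, and 46 in replicate 1. The emptiest bins in replicate 1 were the second, from 1000001 to 2000000, and the seventeenth, from 16000001 to 17000000, with 25 peaks each, and 20 and 24 in replicate 2. In replicate 2 the emptiest was the thirteenth, from 12000001 to 13000000, with 18 peaks, and 26 in replicate 1. LEM-2 subdomains made up 88.7% of the first bin, 74.5% of the second, 24.9% of the thirteenth and 6.74% of the seventeenth. The first bin, though the richest in subdomains, held 33 and 32 peaks, close to the mean of the chromosome. Its peaks had a median width of 1987 bp in replicate 1 and 2023 bp in replicate 2. They covered 7.90% and 6.82% of its bases, below the 10.5% and 8.44% of X as a whole.

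**Figure D5:**
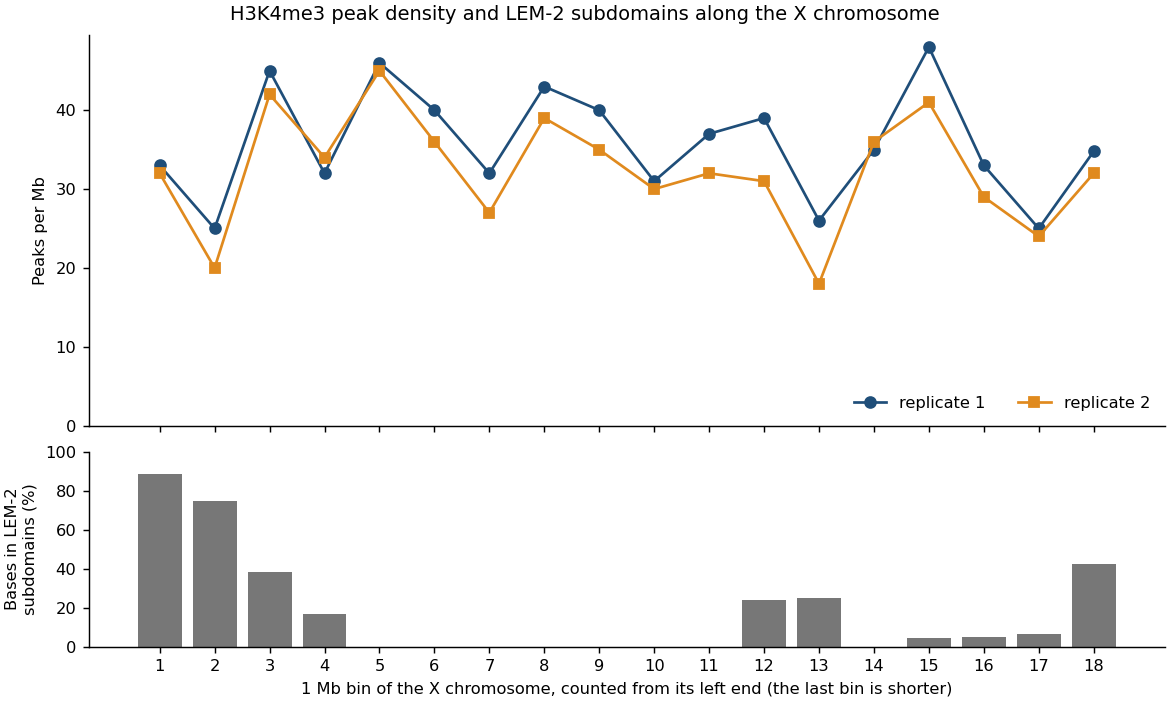
Peaks per Mb in 1 Mb bins of X counted from its left end, in replicate 1 (circles) and replicate 2 (squares), above the percent of bases of each bin in LEM-2 subdomains. The second, thirteenth and seventeenth bins (25, 26 and 25 peaks in replicate 1, 20, 18 and 24 in replicate 2) are among the sparsest. Their subdomain bases are 74.5%, 24.9% and 6.74%. The first bin, with 88.7% subdomain bases, is not among the sparsest in number of peaks.

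LEM-2 subdomains held few of the X peaks. The 55 subdomains of X make up 17.7% of the chromosome, against 48.9 to 61.7% of single autosomes. The midpoints of 48 X peaks in replicate 1 and 46 in replicate 2 lay in them, which is 7.56% (95% interval 5.63 to 9.90%, Clopper-Pearson) and 8.01% (5.93 to 10.5%). On the autosomes together the shares were 34.5% and 34.0%, and X was below each autosome (exact permutation p = 0.167). This follows the smaller extent of the subdomains on X and is not by itself a difference in density. Within X the density was 15.3 peaks per Mb of subdomain and 40.2 per Mb of gap in replicate 1, and 14.7 and 36.1 in replicate 2. The ratio of gaps to subdomains was 2.62 and 2.46, or 2.54 ± 0.114 (SD, n = 2), inside the range of the autosomal ratios, which ran from 1.88 to 4.04 in replicate 1 and from 1.89 to 4.30 in replicate 2 (exact permutation p = 1). Outside the left arm alone the X ratio was 4.06 and 4.67, above every autosome (1.74 to 3.68 and 1.83 to 3.98, exact permutation p = 0.167), and it rests on the 9 and 7 peaks in X subdomains there.

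Both the gaps and the subdomains of X were sparse compared with most autosomes. With gaps of all sizes pooled, the gap density of X, 40.2 and 36.1 peaks per Mb, was below that of every autosome. The autosomal values ran from 46.0 to 67.5 in replicate 1 and from 42.6 to 63.7 in replicate 2. This did not hold for every gap size, as given below. Outside subdomains the density of X was 0.686 ± 0.0134 (SD, n = 2) times that of the autosomes, compared with 0.925 over whole chromosomes (exact permutation p = 0.167). The subdomain density, 15.3 and 14.7, was above that of chromosome V only (11.4 and 9.92). Gap, the denser class, made up 82.3% of X and between 38.3 and 50.9% of single autosomes.

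Gaps differed by size. The 17 small gaps, 0.28% of X, held 8 peaks in each replicate, or 159 per Mb. The 22 medium gaps held 58 and 50 peaks (62.9 and 54.2 per Mb), the 12 large gaps 95 and 87 (36.7 and 33.6 per Mb) and the 3 extra large gaps 425 and 382 (38.6 and 34.7 per Mb). Size by size, X was below every autosome in both replicates only for large gaps, with chromosome V next at 42.1 and 40.9. For extra large gaps X was above chromosome V (38.4 and 33.5). For small gaps it was above chromosomes III (114 and 152) and V (141 and 135). For medium gaps it was lowest in replicate 1 and above chromosome II (50.3) in replicate 2. The small gaps rest on 8 peaks and 9 of the 17 were touched by no peak in either replicate. All 12 large gaps and 19 of the 22 medium gaps were touched in both replicates. The large gap from 2315494 to 2636139 in the left arm held the most peaks of this class, 18 in replicate 1 and 15 in replicate 2.

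The left end of X, where the subdomains gather, was then compared with the rest of the chromosome. In the left arm, 29 subdomains held 39 peaks in each replicate, 17.9 per Mb, and the bases of the arm in gaps, which include the start of an extra large gap that runs on into the centre, held 97 and 89 peaks, 51.9 and 47.7 per Mb. Outside the left arm, 26 subdomains held 9 peaks in replicate 1 and 7 in replicate 2, 9.48 and 7.38 per Mb, and the gaps held 38.5 and 34.5 per Mb. Both classes were thus denser in the left arm than elsewhere on X, gaps by 1.35 and 1.38 times and subdomains by 1.88 and 2.42 times. For gaps X lay inside the autosomal range of 0.948 to 1.45 and 0.984 to 1.55 (exact permutation p = 0.5). The left arm as a whole was slightly sparser than the rest, and 2.18 Mb of its 4.05 Mb is subdomain. The ratio for subdomains rests on the 9 and 7 peaks outside the arm, and it was higher on X than on each autosome in both replicates (0.842 to 1.64 and 0.832 to 1.79, exact permutation p = 0.167). The gaps of the left arm were still less dense than those in the left arm of any autosome, which ran from 60.7 to 85.7 per Mb in replicate 1 and from 56.9 to 77.8 in replicate 2.

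A peak touched 19 of the 29 left-arm subdomains in replicate 1 and 17 in replicate 2, and 9 of the other 26 in replicate 1 and 7 in replicate 2. Left-arm subdomains were larger, with a median of 52.6 kb against 21.2 kb in the centre and 30.7 kb in the right arm. A larger region is touched more easily at the same density. Over X, 26 of the 55 subdomains were touched by no peak in either replicate and 23 were touched in both. The outermost left subdomain, from 26 to 322337, held 7 peaks in each replicate, and the next, from 325190 to 409917, held 6 in each and had 14.0% and 13.1% of its bases in peaks, against 3.81% and 3.13% over all X subdomains. The subdomain from 1626451 to 1841151, though 215 kb long, held 1 peak in each, which covered 0.698% and 0.679% of it. The longest subdomain free of peaks in both replicates was 88.1 kb long, from 1349631 to 1437702. These 4 were picked after their values had been seen. Among peaks well inside a left-arm subdomain, the widest over both replicates ran from 592309 to 596256 (3948 and 3806 bp), from 1994878 to 1998860 (3983 and 3730 bp) and from 45650 to 49123 (3474 and 2823 bp). Their scores of 3100, 2154 and 3100 in replicate 1 lay above the X median of 974.

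The replicates matched closely on X. A replicate 2 peak overlapped 542 of the 635 X peaks of replicate 1 by at least 1 bp, and a replicate 1 peak overlapped 553 of the 574 X peaks of replicate 2. These are shares of 85.4% (95% interval 82.4 to 88.0%, Clopper-Pearson) and 96.3% (94.5 to 97.7%). The autosomes had 86.3% and 97.5%. X was lowest of the 6 chromosomes in both directions (exact permutation p = 0.167), with differences of only -0.981 and -1.19 percentage points, and the autosomal shares of 85.8 to 86.8% and 97.1 to 98.0% lay within or close to the counting intervals of X. With a reciprocal overlap of at least 50% X was 0.928 percentage points above the autosomes, so no stable difference was seen. In bases, 1.44 Mb was shared, 77.5% of the replicate 1 and 96.5% of the replicate 2 peak bases on X.

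Matched X peaks sat in nearly the same place. Among the 528 X peaks that matched 1 to 1, the distance between midpoints had a median of 60.0 bp and was within 200 bp for 82.2%. Replicate 2 widths were a median of 0.926 times those of replicate 1, as on the autosomes (0.927), and the Spearman correlation across these pairs was 0.90 for width and 0.92 for score. A broad replicate 1 peak was split into several replicate 2 peaks in 12 cases on X, and the reverse occurred in 1 case.

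Unmatched peaks were mostly weak. The 93 X peaks found only in replicate 1 had a median score of 102 and a median width of 1701 bp, against a median score of 1327 for the matched ones. The 21 found only in replicate 2 had a median score of 73.0. Of the 59 replicate 1 X peaks with a score under 100, 15 (25.4%) were matched. Of those scoring 500 to 1500, 148 of 150 were matched, and of those scoring 1500 or more, 250 of 250. The exceptions were an 8096 bp peak from 10500301 to 10508396 with a score of 1330.54 and a 3547 bp peak from 16532191 to 16535737 with a score of 626. The first had the highest score of any unmatched replicate 1 peak in the genome, ahead of 829 for the next, on chromosome IV, and the nearest replicate 2 peaks began 15.2 kb to its right and ended 63.7 kb to its left. The third unmatched replicate 1 peak by score, from 8057078 to 8058820, scored 414. In replicate 2 the highest unmatched X score was 345, for a peak from 2900445 to 2902407 in a large gap of the left arm, followed by 115 for one from 2905906 to 2908524 in the same gap and 115 for one from 14125075 to 14126555.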

How the data were processed

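H3K4me3 ChIP-seq peaks were read from 2 deposited lists. The authors called them with MACS separately for each replicate at a p-value cutoff of 1e-05, and the deposited score is 10 times the negative log10 of the p-value. The submitters' processing notes name BWA, and the study's methods name MAQ and the ce4 assembly for its coverage profiles. The build of the lists is not given in the sources used here. Starts were counted from 1. LEM-2 subdomains, gaps, arms and chromosome lengths are those of the study, in ce4, with each gap ended 1 base before the next subdomain. Every assignment of a peak to a subdomain, gap or arm assumes that the lists use the same build, which was not tested, and small gaps, on X as short as 0.146 kb, would be the most affected by a shift. All coordinates are on X unless another chromosome is named.

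Peaks were placed by their midpoint. Values were computed in each replicate and averaged (SD, n = 2). X was compared with the autosomes by exact permutation over the 6 chromosomes, since 2 replicates allow no two-sided sign-flip p below 0.5. Score percentiles used mean ranks for ties. Peaks were named by rule: on X, among peaks matched 1 to 1, the 5 widest, 3 narrowest, 5 most isolated and 3 widest in left-arm subdomains at least 1 kb from an edge; the 5 longest stretches without a peak; the first and last peak; the 3 highest-scoring unmatched peaks of each replicate; and the fullest and emptiest bins. The X chromosome and the measures were chosen with earlier results of these data known. No genes or sequences are given, because no genome or annotation of the build of the lists was used here. The scripts were tested on simulated peaks. The software was Python (3.11.15) with pandas (2.3.3) and numpy (2.4.6). Intervals came from scipy (1.17.1), and figures from matplotlib (3.10.9).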

Additional observations from a re-analysis of the deposited data

How the results depend on the processing

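Over 13 results, 104 alternative values were computed, and 93 kept the direction of the reported value. The ratio of the centre to the arms and its alternatives, and the restriction of score, wide peaks and replicate overlap to the central regions, were chosen after seeing the data. The lower median width, lower score percentile, smaller subdomain share and smaller centre-to-arm ratio of X kept their direction under every alternative tried for them. For median width these did not include the arms, and in the right arm X was above every autosome in replicate 1, as given above. The subdomain share follows the smaller extent of subdomains on X, which no alternative changed, so its kept direction adds no evidence. Of the 11 values that turned direction, 6 came from setting X against one autosome. Against chromosome V the density ratio was 1.45, the covered share was 2.92 percentage points higher on X, the spacing ratio was 0.768 and the ratio of gap to subdomain density was 0.611 times. Against chromosome III the share in long peak-free stretches was 9.40 percentage points higher on X, and against chromosome I the right-arm ratio was 0.965 times. The other 5 were the share in stretches of 50 kb or more (4.41), the right-arm ratio counted in peak bases (0.966), the gap to subdomain ratio without replicate 1 (0.979) and without extra large gaps (0.976), and the reciprocal overlap of 50% (0.928). For these the cause was not tested. Leaving out a replicate gave 0.979 to 1.07 for the gap to subdomain ratio of X over autosomes, -5.02 to -1.77 percentage points for the peak-free share and 1.70 to 2.52 for wide peaks. Merging peaks within 500 bp lowered the last to 0.993.

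No paired analysis was possible because both libraries belong to 1 group and the inputs were not used. The spread rests on 2 libraries without read counts, chromosomes are few and not independent samples, and H3K4me3 below the peak threshold is not seen.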
